A study of Mus musculus with 9 samples.

Results

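The type I interferon-stimulated genes described here are 38 mouse genes of the antiviral programme, chosen by symbol among the 42454 gene names of a bulk RNA sequencing study. The study compared tumours that MC38 cells, a mouse colorectal carcinoma line, had formed in C57BL/6J mice. The control tumours (Vec, n = 4; genotype WT in the labels) grew from Vec-MC38 cells, and the others (CD43-KO, n = 5) from MC38 cells with a CD43 knockout. The knockout was in the implanted cells, and the labels name the same mouse strain as host in both groups. All tumours were taken at day 21 after inoculation, and no age of the mice was given. The labels did not state whether the knockout cells were 1 clone, nor whether the replicates were separate mice, so p-values measure the spread between these samples.

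Type I interferons are secreted when a cell senses foreign or misplaced nucleic acid. They bind the receptor IFNAR, whose kinases JAK1 and TYK2 activate STAT2. STAT2 acts with IRF9 in the factor ISGF3, which binds an element in the promoters of interferon-stimulated genes. The products block viral replication, sense nucleic acid, or feed back on the pathway, and in tumours they are read as a trace of interferon exposure of carcinoma and host cells alike. Many of them respond to interferon gamma as well.

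The promoters of several of these genes carry repeats of the core letters that interferon regulatory factors bind. The windows below were picked among those that hold such a repeat before the start. They belong to genes with low levels in CD43-KO tumours (Ifit1, Isg15, Rsad2), to a pair of related genes with matching windows (Oas1a, Oas1g), and to 2 genes whose group means lay close together (Stat2, Bst2). Sequences are from RefSeq on GRCm38.p6, read 5′ to 3′ on the strand of the gene, and end before the transcript start that the RefSeq promoter table uses. Capitals mark every match to the motif GAAA, any 2 bases, GAAA, on either strand (TTTC, any 2 bases, TTTC on the other one).
Ifit1: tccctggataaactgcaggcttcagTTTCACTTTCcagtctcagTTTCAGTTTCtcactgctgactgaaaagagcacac
Isg15: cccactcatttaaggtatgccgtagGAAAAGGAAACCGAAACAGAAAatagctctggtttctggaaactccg
Rsad2: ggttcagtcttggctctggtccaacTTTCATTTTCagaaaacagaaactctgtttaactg
Oas1a: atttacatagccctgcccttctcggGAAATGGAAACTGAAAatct
Oas1g: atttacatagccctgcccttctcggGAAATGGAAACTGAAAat
Stat2: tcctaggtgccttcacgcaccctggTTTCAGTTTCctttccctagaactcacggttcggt
Bst2: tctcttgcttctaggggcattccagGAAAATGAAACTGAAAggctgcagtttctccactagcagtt

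These windows lie at chr19:34640760-34640838 (Ifit1, plus strand), chr4:156200850-156200921 (Isg15, minus) and chr12:26456538-26456597 (Rsad2, minus). The others lie at chr5:120907526-120907570 (Oas1a, minus), chr5:120887614-120887656 (Oas1g, minus), chr10:128270251-128270310 (Stat2, plus) and chr8:71537562-71537627 (Bst2, minus). In Oas1a, 19 of the 45 bases lie inside the gene span that RefSeq gives, which reaches beyond the start used. The Oas1a and Oas1g windows were identical at 43 of 43 compared bases. The corresponding windows of Ifit3 and Ifit3b, identical at 94 of 94 bases, lie wholly inside the RefSeq gene spans and are not printed. In Isg15, 3 overlapping matches began 78, 72 and 66 bases before the start (coded as -78, -72 and -66).

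Windows of 300 bases (250 before and 50 after the start) were found for 29 of the 38 genes. Of these, 15 (51.7%) held this GAAA repeat on either strand, against 3.99% of the 27025 genes with such a window. The palindromic TTCNNNGAA, the core that STAT dimers bind, was found in 6 of the 29 (20.7%), against 9.55% of all genes. The 15 genes with the GAAA repeat had a median log2 fold change (CD43-KO over Vec) of -0.21 and the 14 without one of -0.14. Cmpk2, Oasl2, Irf7, Ifi44, Irf9, Xaf1, Oasl1, Trim25, Dtx3l, Herc6, Samd9l and Epsti1 held neither motif in these windows. A match describes letters only.

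Total counts ranged from 60751738 to 72114385 in Vec and from 44814061 to 62194418 in CD43-KO libraries, the lowest in CD43-KO replicate 3. That library also stood apart in skeletal muscle and fat transcripts, whose 8 markers summed to 1176 CPM (counts scaled to library size, with TMM factors) against 78.7 to 124.1 CPM in the other 8 tumours. Spn, which encodes CD43, was at 41.0 to 53.8 CPM in the Vec tumours, against 6.81 to 33.6 CPM in the CD43-KO tumours. The groups did not overlap, as for 3.5% of all names in this direction, and the edgeR adjusted p was 0.281. Transcripts remained in all tumours. Host cells carried no knockout, so whether these transcripts came from host or implanted cells cannot be told. The epithelial keratin genes Krt8 and Krt18 had 0 to 12 counts per library and did not pass the filter on low counts. Each value below is a level in whole tumour, where fewer cells of a type and less RNA per cell cannot be told apart.

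All 38 genes passed the filter, which kept 18243 names. All levels are TMM-scaled CPM. In CD43-KO tumours 32 of the 38 genes had a log2 fold change below 0, or 84.2%, against 46% of all names tested. Their median was -0.21, against 0.03 over all names, and the range was -0.97 to 0.65. The lowest values were those of Ifit3b, Ifit3, Cmpk2, Usp18, Isg15, Rsad2 and Ifit1. The transcription factor gene Stat2 and the regulators Parp9, Dtx3l and Trim30a lay near 0, and Epsti1, Eif2ak2 and Parp14 lay above it. The 38 genes share a pathway and the same 9 tumours, so they are not independent of each other.

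**Figure D1:**
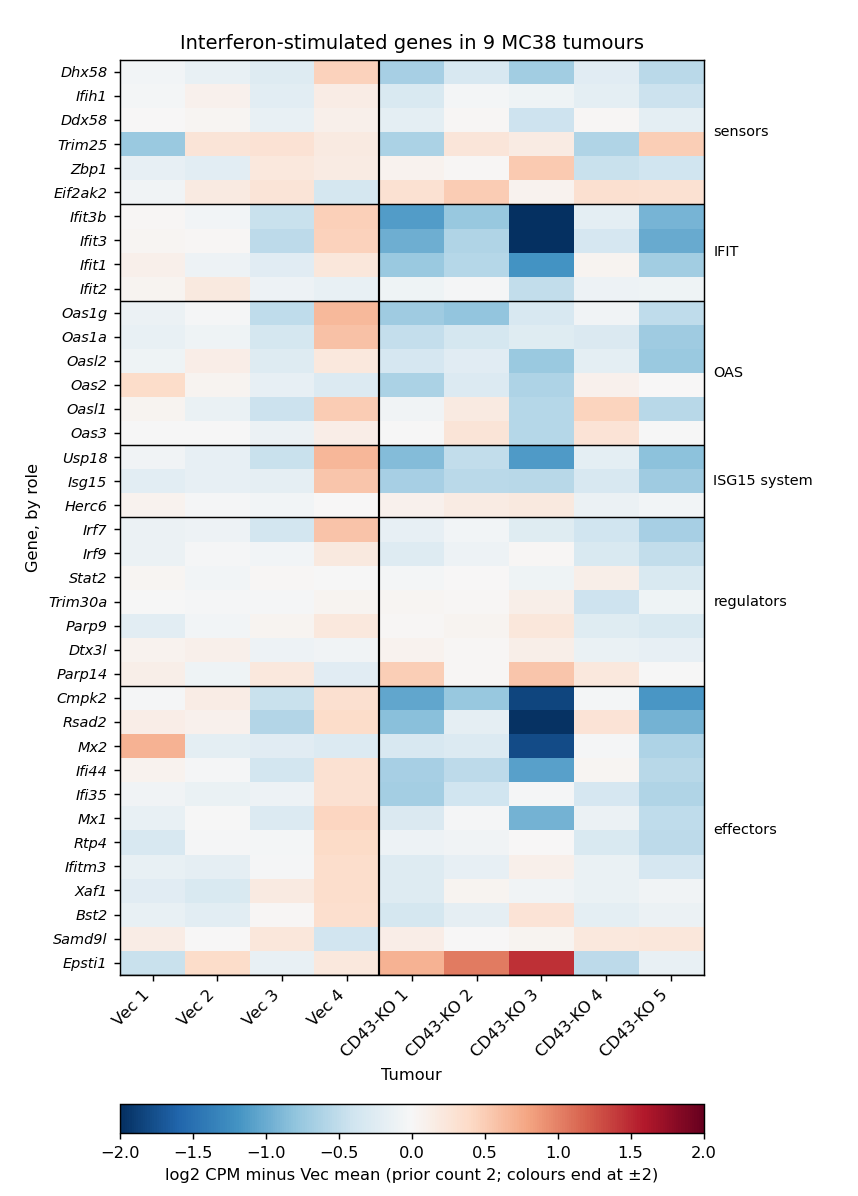
Heat map of the 38 genes (rows, by role) in 9 tumours (columns), as log2 CPM minus the mean of the Vec tumours. Most IFIT, ISG15 and OAS rows are blue in the CD43-KO columns, deepest in the Ifit3 and Ifit3b rows of CD43-KO replicate 3 and pale in CD43-KO replicate 4, and most rows are red in Vec replicate 4.

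None of the 38 genes passed the edgeR quasi-likelihood test at an adjusted p of 0.05, where 0% of all names passed. The smallest edgeR adjusted p among them was 0.202 and the largest 0.978. At an unadjusted p under 0.05, edgeR gave 12 of the 38 as lower (31.6%, against 7.63% of all names) and 0 as higher (against 7.75%). These 12 were Dhx58, Ifit1, Ifit3, Ifit3b, Oas1a, Oas1g, Oasl2, Isg15, Usp18, Cmpk2, Ifi44 and Ifi35. An exact permutation test over the 126 splits into 4 and 5 tumours, two-sided, gave an unadjusted p under 0.05 in 10 of the 38 (against 13.8% of all names) and an adjusted p under 0.05 in 0.

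Other tools called a few of the genes, and all of these were lower. DESeq2 called 2 of 38, Isg15 (adjusted p = 0.0409) and Ifit3 (0.0478), against 2% of all names called lower and 1.35% higher. Limma voom with sample quality weights called 3 of 38, Cmpk2 (adjusted p = 0.0484), Ifi35 (0.0496) and Ifit3 (0.0498), against 2.04% lower and 1.04% higher. These calls depended on single tumours: with DESeq2 none was left without Vec replicates 1, 2 or 4 or CD43-KO replicates 1, 2 or 5, while 6, 4 and 9 of the genes were called without Vec replicate 3, CD43-KO replicate 3 and CD43-KO replicate 4. In these 3 fits 3.42%, 3.69% and 2.74% of all names were called lower. With limma voom 0 genes were called without Vec replicates 1 or 2 or CD43-KO replicates 1, 2 or 5, and 1 without Vec replicate 4. It called 5, 2 and 7 without Vec replicate 3, CD43-KO replicate 3 and CD43-KO replicate 4, against 3.52%, 1.69% and 3.04% of all names called lower.

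Single tumours often held the highest or the lowest level. Vec replicate 4, the library with the lowest TMM factor (0.891), was the highest tumour for 23 of the 38 genes. Without it, edgeR gave 4 genes as lower at an unadjusted p under 0.05 in place of 12, and the median log2 fold change was -0.14. CD43-KO replicate 3 was the lowest tumour for 15 genes and the highest for 7, and CD43-KO replicate 5 was the lowest for 10. CD43-KO replicate 5 lay below every Vec tumour in 27 genes, CD43-KO replicate 1 in 21, CD43-KO replicate 3 in 18, CD43-KO replicate 2 in 12 and CD43-KO replicate 4 in 10. The counts by tumour were not taken over all names, so whether they are particular to these genes was not tested.

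**Figure D2:**
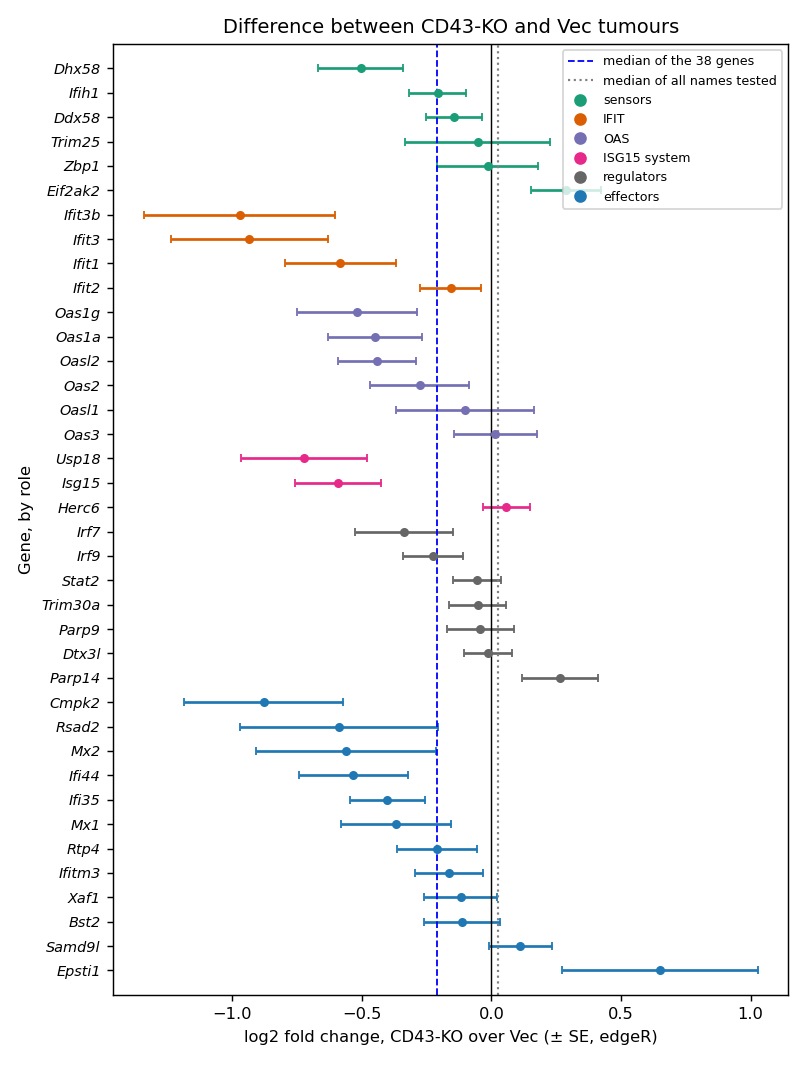
Log2 fold change (CD43-KO over Vec, x axis) of each of the 38 genes with its SE from edgeR, coloured by role. The dashed line is the median of the 38 genes (-0.21) and the dotted line that of all names tested (0.03). Ifit3b, Ifit3, Cmpk2 and Usp18 lie farthest to the left.

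The ISG15 system held the gene with the clearest separation. Isg15 encodes a ubiquitin-like protein that is attached to other proteins. It was at 49.9, 51.25, 50.8 and 84.4 CPM in Vec replicates 1 to 4 and at 36.4, 39.45, 39.2, 46.0 and 35.0 CPM in CD43-KO replicates 1 to 5. Every CD43-KO tumour lay below every Vec tumour, which held for 1 of the 38 genes in this direction, against 3.5% of all names, and for 0 in the other direction, against 2.08%. The log2 fold change was -0.59 ± 0.17 (SE), with an edgeR adjusted p of 0.202 and an exact permutation p of 0.00794, the smallest the design can give (0.228 adjusted over all names). Vec replicate 4 alone raised the Vec mean, and without it the log2 fold change was -0.375.

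Usp18 encodes the protease that removes ISG15 and also restrains the interferon receptor. Its levels were 18.7, 17.5, 14.4 and 31.1 CPM in the Vec tumours, against 10.8, 13.96, 8.89, 17.1 and 11.1 CPM in the CD43-KO tumours. All CD43-KO tumours except replicate 4 lay below every Vec tumour (log2 fold change -0.72 ± 0.24 SE, edgeR adjusted p = 0.250). Without Vec replicate 4 this value was -0.45. Herc6, the ligase that attaches ISG15 in mice, did not follow. It was at 35.5, 32.9, 32.4 and 33.8 CPM in the Vec tumours, against 35.5, 37.8, 38.5, 31.1 and 32.3 CPM in the CD43-KO tumours (0.06 ± 0.09 log2, edgeR adjusted p = 0.775). In GENCODE transcripts 22.4% of the 75-base windows of Herc6 also occur in Gm45193.

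All 4 IFIT genes had a log2 fold change below 0, and 3 of the 4 were among the 12 with an unadjusted edgeR p under 0.05. IFIT proteins bind viral RNA and block its translation, and their genes lie together on chromosome 19. Ifit1 (34640889 to 34650009) was at 41.3, 36.1, 33.1 and 45.4 CPM in the Vec tumours, against 23.2, 26.2, 16.8, 40.1 and 23.8 CPM in the CD43-KO tumours. CD43-KO replicate 4 lay within the Vec range and the other 4 lay below it. The log2 fold change was -0.58 ± 0.21 (SE, edgeR adjusted p = 0.268).

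Ifit3 (34583119 to 34588982) was at 44.5, 44.1, 30.3 and 59.5 CPM in the Vec tumours, against 21.9, 28.4, 10.49, 34.4 and 21.5 CPM in the CD43-KO tumours. Again only CD43-KO replicate 4 reached the Vec range, and CD43-KO replicate 3 was the lowest tumour (-0.93 ± 0.30 log2 SE, edgeR adjusted p = 0.239). Ifit3b (34607530 to 34613403) was at 11.5 ± 3.05 CPM (SD, n = 4) and 5.84 ± 2.80 CPM (SD, n = 5), with a log2 fold change of -0.97 ± 0.37. Both genes are uncertain, since 41.1% of the 75-base windows of the Ifit3 transcript also occur in another gene and 35.7% of those of Ifit3b do, and how shared reads were counted is not given in the sources used here. With their counts summed, the log2 fold change was -0.94 (edgeR adjusted p = 0.249). Ifit2 (34550550 to 34576534) differed less, at 32.3 ± 3.51 and 28.95 ± 3.52 CPM (-0.16 ± 0.12 log2). In Ifit2, CD43-KO replicate 3 was at 22.7 CPM and the other CD43-KO tumours at 30.1 to 31.45 CPM. The Ifit2 value was -0.09 without that tumour or without Vec replicate 2.

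**Figure D3:**
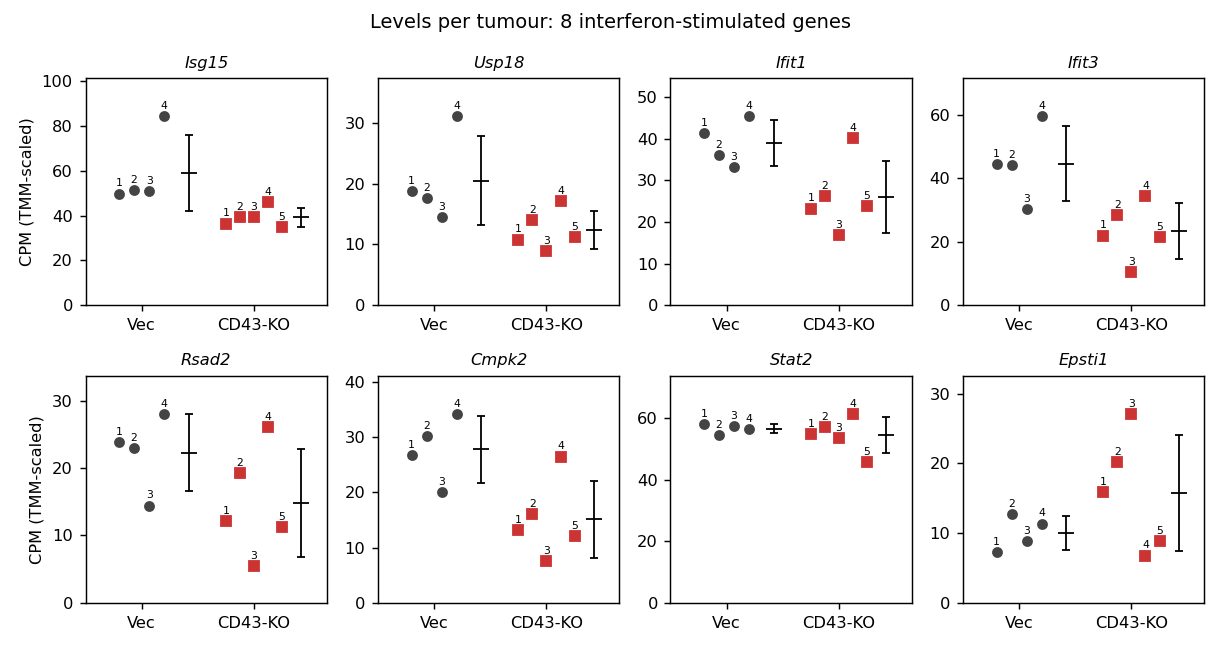
Levels (TMM-scaled CPM, y axis from 0) of 8 of the genes in each Vec (circles) and CD43-KO (squares) tumour, with the replicate number at each point and mean ± SD beside it. CD43-KO replicate 4 lies at or near the Vec values of Ifit1, Rsad2 and Cmpk2, the groups do not overlap in Isg15, and Stat2 shows almost the same mean in both.

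Of the 6 OAS genes, 5 had a log2 fold change below 0 and 3 were among the 12. OAS enzymes make oligoadenylates that activate RNase L, and the OASL proteins are their relatives. Oasl2 was the most abundant by CPM, at 50.6, 58.7, 45.1 and 62.2 CPM in the Vec tumours, against 42.4, 45.7, 32.0, 46.9 and 32.2 CPM in the CD43-KO tumours. The ranges overlapped through CD43-KO replicates 2 and 4 (-0.44 ± 0.15 log2 SE, edgeR adjusted p = 0.251). Oas3 showed no such order, at 32.5, 32.5, 30.0 and 36.0 CPM in the Vec tumours, against 32.4, 39.0, 22.0, 39.7 and 32.4 CPM in the CD43-KO tumours (0.02 ± 0.16 log2). Its sign turned without Vec replicate 3 or CD43-KO replicates 2 or 4.

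Oas1a was at 33.2, 34.8, 28.6 and 55.05 CPM in the Vec tumours, against 26.5, 28.7, 30.9, 30.2 and 22.5 CPM in the CD43-KO tumours. Vec replicate 4 was far above the other tumours, and the ranges overlapped (-0.45 ± 0.18 log2 SE, edgeR adjusted p = 0.291). Without Vec replicate 4 the value was -0.22. Oas1g had a log2 fold change of -0.52 ± 0.23, and of -0.26 without that tumour. This pair is uncertain for the same reason as Ifit3 and Ifit3b: 47.6% of the 75-base windows of Oas1a and 44.6% of those of Oas1g are shared with other genes. Their summed counts gave -0.47 (edgeR adjusted p = 0.288). Oas2 and Oasl1 were at -0.28 and -0.10. Oas2 was at -0.15 without Vec replicate 1, and Oasl1 turned to 0.09 without Vec replicate 4.

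Among the 6 sensors of nucleic acid, Dhx58 had the smallest p. It encodes LGP2, which modulates the RNA sensors RIG-I (Ddx58) and MDA5 (Ifih1). Dhx58 was at 21.1, 19.7, 18.3 and 30.05 CPM in the Vec tumours, against 13.7, 17.5, 13.4, 18.8 and 15.1 CPM in the CD43-KO tumours. CD43-KO replicate 4 alone reached into the Vec range (-0.50 ± 0.16 log2 SE, edgeR adjusted p = 0.2395). Ddx58 and Ifih1 were closer to 0, at -0.14 ± 0.11 and -0.21 ± 0.11 log2. Eif2ak2, the kinase PKR that halts translation on double-stranded RNA, went the other way, at 31.3 ± 5.74 CPM in the Vec tumours, against 38.2 ± 4.09 CPM in the CD43-KO tumours. In 4 of 5 CD43-KO tumours it lay above every Vec tumour (0.29 ± 0.14 log2 SE, edgeR adjusted p = 0.340). Without Vec replicate 4 the values of Dhx58 and Eif2ak2 were -0.33 and 0.18, and without CD43-KO replicate 3 that of Ddx58 was -0.09.

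Zbp1, a sensor of nucleic acid in the Z form, was at 60.0, 58.25, 77.97 and 75.6 CPM in the Vec tumours, against 70.5, 68.7, 96.4, 49.5 and 51.3 CPM in the CD43-KO tumours. The means were almost equal (-0.01 ± 0.19 log2, edgeR adjusted p = 0.978), while CD43-KO replicate 3 was the highest and replicate 4 the lowest of all 9. Trim25, a ligase that aids RIG-I signalling, was at 43.0, 86.0, 87.9 and 81.7 CPM in the Vec tumours, against 46.2, 85.3, 80.55, 47.3 and 100.5 CPM in the CD43-KO tumours. It took 2 levels within each group (-0.05 ± 0.28 log2, edgeR adjusted p = 0.942). The tables also list a copy name of Trim25, so its counts are uncertain.

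The 7 regulators had a median log2 fold change of -0.05, the closest to 0 of the 6 roles. Stat2, a subunit of ISGF3, was at 58.1, 54.6, 57.6 and 56.6 CPM in the Vec tumours, against 54.9, 57.1, 53.6, 61.5 and 45.8 CPM in the CD43-KO tumours (-0.05 ± 0.09 log2 SE, edgeR adjusted p = 0.792). Irf9, its DNA-binding partner, was at 52.3, 55.6, 54.2 and 64.5 CPM in the Vec tumours, against 47.1, 52.7, 57.4, 45.5 and 39.97 CPM in the CD43-KO tumours. The ranges overlapped through CD43-KO replicates 2 and 3 (-0.22 ± 0.12 log2 SE, edgeR adjusted p = 0.375). Irf7, which amplifies interferon production, was at 51.2, 52.0, 43.2 and 82.7 CPM in the Vec tumours, against 49.3, 53.55, 46.9, 42.2 and 34.9 CPM in the CD43-KO tumours. Its log2 fold change of -0.34 ± 0.19 (edgeR adjusted p = 0.408) rested on Vec replicate 4, without which it was -0.11.

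Parp9, Dtx3l and Parp14, which encode interacting ADP-ribosyltransferases and a ubiquitin ligase, lie together on chromosome 16, where Parp9 and Dtx3l overlap over 558 bases, and reads from that stretch cannot be told apart without strand. Their log2 fold changes were -0.04 ± 0.13, -0.01 ± 0.09 and 0.26 ± 0.15, and those of Parp9 and Dtx3l changed sign when single tumours were left out. Trim30a, a restraint on inflammatory signalling, was at 34.8 ± 0.931 and 33.5 ± 4.503 CPM (-0.05 ± 0.11 log2).

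Of the 12 effectors, 10 had a log2 fold change below 0 and 3 were among the 12 genes with an unadjusted edgeR p under 0.05. Cmpk2, a mitochondrial nucleotide kinase gene, was at 26.7, 30.1, 20.02 and 34.2 CPM in the Vec tumours, against 13.2, 16.03, 7.61, 26.45 and 12.1 CPM in the CD43-KO tumours. CD43-KO replicate 4 lay among the Vec tumours and the other 4 below all of them (-0.88 ± 0.31 log2 SE, edgeR adjusted p = 0.257). Its neighbour on chromosome 12, Rsad2, encodes viperin, which turns a nucleotide into a chain terminator of viral RNA. Rsad2 was at 23.8, 22.9, 14.4 and 28.0 CPM in the Vec tumours, against 12.1, 19.2, 5.455, 26.1 and 11.2 CPM in the CD43-KO tumours. The order of the 5 CD43-KO tumours was the same as for Cmpk2, and the SE was larger (-0.59 ± 0.38 log2 SE, edgeR adjusted p = 0.467). Without CD43-KO replicate 3 the Rsad2 value was -0.39, and without CD43-KO replicate 4 it was -0.89.

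Mx1 encodes a GTPase that traps viral nucleocapsids and is known to be defective in most laboratory mouse strains. It was at 7.24, 8.01, 6.67 and 10.8 CPM in the Vec tumours, against 6.61, 7.91, 4.18, 7.39 and 5.63 CPM in the CD43-KO tumours. The ranges overlapped (-0.37 ± 0.21 log2 SE, edgeR adjusted p = 0.418), and the value was -0.21 without Vec replicate 4. Mx2 was at -0.56 ± 0.35 log2, at -0.27 without Vec replicate 1, and at -0.37 without CD43-KO replicate 3. Ifi44 and Ifi35 were at -0.53 ± 0.21 and -0.40 ± 0.15 log2, with 4 of 5 CD43-KO tumours below every Vec tumour in each (edgeR adjusted p = 0.285 and 0.265).

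The genes of 2 membrane proteins were the most abundant by CPM. Ifitm3, which hinders the fusion of viruses with the cell, was at 338, 334, 369.8 and 479 CPM in the Vec tumours, against 315, 334, 404, 344 and 298 CPM in the CD43-KO tumours (-0.16 ± 0.13 log2 SE, edgeR adjusted p = 0.558), and its value was -0.04 without Vec replicate 4. Bst2 encodes tetherin, which holds budding viruses at the membrane. It was at 245, 234, 275 and 339.9 CPM in the Vec tumours, against 213, 239, 327, 236 and 250.5 CPM in the CD43-KO tumours (-0.11 ± 0.15 log2 SE, edgeR adjusted p = 0.725), and its sign turned without Vec replicate 4. Rtp4, Xaf1 and Samd9l were at -0.21, -0.12 and 0.11, and at -0.07, 0.00045 and -0.0061 without Vec replicate 4. Epsti1, an interferon-responsive gene named for the contact of epithelium and stroma, was at 7.24, 12.7, 8.90 and 11.4 CPM in the Vec tumours, against 15.95, 20.2, 27.1, 6.79 and 8.89 CPM in the CD43-KO tumours. CD43-KO replicates 1 to 3 exceeded the Vec range and the other 2 did not (0.65 ± 0.38 log2 SE, edgeR adjusted p = 0.423). Without CD43-KO replicate 3 its value was 0.36.

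Compared per length, with exon lengths from GENCODE M21, Ifitm3 (560 CPM per kb of exon in Vec and 500.0 in CD43-KO), Bst2 (303 and 280.0) and Isg15 (78.2 and 51.9) had the highest levels, followed by Ifi35 (45.9 and 34.8). Oasl1 (1.81 and 1.68) and Mx2 (1.05 and 0.709) had the lowest. The annotation behind the deposited counts is not given in the sources used here, so these levels are approximate.

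Transcripts of type I interferons themselves were at or near the limit of detection. Of 21 interferon gene names listed, 15 had a count of 0 in all 9 libraries, which allows a level of up to 0.0422 to 0.0696 CPM per library (3 counts, for counting error only). The Ifna genes are close copies of each other, so reads could also be lost between them. Ifnb1, which encodes interferon beta, had 10, 2, 8 and 6 counts in Vec and 2, 6, 0, 9 and 6 counts in CD43-KO libraries and did not pass the filter. Only Ifng and Ifnz passed, and Ifnz had 1 to 14 counts per library. Ifng, which encodes interferon gamma of T and natural killer cells, was at 0.836, 2.13, 3.28 and 2.18 CPM in the Vec tumours, against 3.77, 4.35, 11.4, 1.84 and 2.13 CPM in the CD43-KO tumours. Its mean was higher in CD43-KO tumours through replicates 1 to 3 (1.15 ± 0.57 log2 SE, edgeR adjusted p = 0.360), and without CD43-KO replicate 3 the log2 fold change was 0.51.

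The receptor and kinase genes of the pathway did not share the direction of its targets. The log2 fold change was positive in 10 of the 11 that passed the filter (median 0.12), against 9860 of all 18243 names tested (median 0.03). None passed edgeR, and 3 (Tyk2, Jak2 and Socs3) were higher at an unadjusted p under 0.05, against the 7.75% of all names given above. Socs3, a feedback inhibitor of cytokine receptors, was at 94.6, 91.1, 92.6 and 88.7 CPM in the Vec tumours, against 115.7, 114, 124, 114 and 87.2 CPM in the CD43-KO tumours (0.27 ± 0.10 log2 SE, edgeR adjusted p = 0.273). Only CD43-KO replicate 5 did not lie above the Vec tumours. The summed level of the list exceeded the Vec range (836 to 894 CPM) in CD43-KO replicates 1 to 3 (994, 1022 and 1111 CPM). CD43-KO replicates 4 and 5 (831 and 795 CPM) did not exceed it. Jak1 was at 176 ± 20.03 and 171 ± 35.6 CPM (-0.05 ± 0.16 log2). The genes of the type I receptor itself lay near 0. Ifnar1 was at 61.2 ± 2.58 and 64.2 ± 5.92 CPM (0.07 ± 0.09 log2 SE), and Ifnar2 at 38.4 ± 6.58 and 39.0 ± 6.42 CPM (0.02 ± 0.15 log2 SE).

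Genes on the route from nucleic acid to interferon also lay mostly above 0. They did so in 13 of 17 (against 9860 of all 18243 names), with a median of 0.29. That list also holds Adar, Trex1 and Samhd1, which restrain the route, at log2 fold changes of 0.08, 0.45 and 0.26. At an unadjusted edgeR p under 0.05, 5 of the 17 were higher (29.4%, against 7.75% of all names) and 0 lower (against 7.63%). The summed level of the list exceeded the Vec range (682 to 730 CPM) in CD43-KO replicates 1 to 3 (840, 906 and 997 CPM). CD43-KO replicates 4 and 5 (692 and 671.5 CPM) did not exceed it. Cgas, which encodes the sensor of cytosolic DNA, was at 7.53, 7.03, 8.63 and 6.89 CPM in the Vec tumours, against 11.6, 10.2, 11.3, 10.1 and 10.6 CPM in the CD43-KO tumours. All CD43-KO tumours lay above all Vec tumours, with a log2 fold change of 0.51 ± 0.12 (SE) and an edgeR adjusted p of 0.160. DESeq2 called it (adjusted p = 0.00228, and 0.000115 to 0.0395 when any 1 library was left out). Limma voom also called it (adjusted p = 0.0317), but not without Vec replicates 1 or 2 or CD43-KO replicates 1 or 2 (adjusted p from 0.0733 to 0.203).

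Ikbke, a kinase that activates IRF3 and IRF7, was the other gene of that list without overlap (against 2.08% of all names) and was picked after its values were seen. It was at 15.3, 16.8, 13.6 and 13.2 CPM in the Vec tumours, against 20.1, 21.5, 26.1, 19.0 and 17.1 CPM in the CD43-KO tumours (0.49 ± 0.14 log2 SE, edgeR adjusted p = 0.196). Without CD43-KO replicate 3, the highest of them, the Ikbke value was 0.39. DESeq2 gave an adjusted p of 0.0364 that was lost without Vec replicates 1, 3 or 4 or CD43-KO replicates 1 or 2 (0.0787 to 0.147). Limma voom did not call it (adjusted p = 0.0793). The most abundant genes of the list were Samhd1 (213 ± 6.004 and 256 ± 61.9 CPM) and Unc93b1 (84.7 ± 7.64 and 112 ± 46.3 CPM), whose log2 fold changes of 0.26 and 0.41 were 0.14 and 0.20 without CD43-KO replicate 3.

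**Figure D4:**
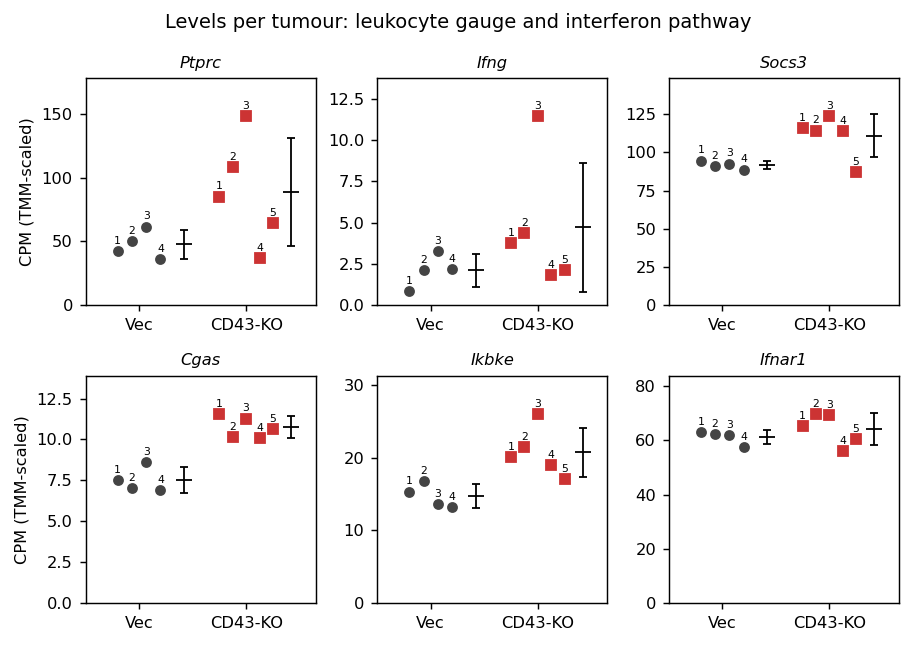
Levels (TMM-scaled CPM, y axis from 0) of the leukocyte gene Ptprc and 5 interferon pathway genes in each Vec (circles) and CD43-KO (squares) tumour, with the replicate number at each point and mean ± SD beside it. Cgas and Ikbke separate the groups, and Ptprc, Ifng, Socs3 and Ikbke are highest in CD43-KO replicate 3.

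Of the 6 leukocyte markers, 5 had a log2 fold change above 0, whereas 32 of the 38 genes had one below 0 and 6 one above. The leukocyte marker below 0 was Arhgdib, at 138.1 and 135.4 CPM (-0.03 ± 0.21 log2 SE). Ptprc, the pan-leukocyte gene of CD45, was at 42.7, 50.5, 61.7 and 35.9 CPM in the Vec tumours, against 85.2, 108, 148, 37.1 and 64.4 CPM in the CD43-KO tumours. Its log2 fold change was 0.89 ± 0.35 (SE, edgeR adjusted p = 0.283), and 0.62 without CD43-KO replicate 3. CD43-KO replicate 3, the highest in Ptprc, was the lowest in all 4 IFIT genes, and CD43-KO replicate 4, the lowest CD43-KO tumour in Ptprc, was the highest of them in Ifit3. The other CD43-KO tumours did not follow that order: replicate 2 was second highest in both Ptprc and Ifit3, and replicate 5 was second lowest in both. The 6 leukocyte markers were all detected and summed to 439.8 to 578 CPM in the Vec tumours, against 409 to 1239 CPM in the CD43-KO tumours. In this sum CD43-KO replicates 4 and 5 (409 and 501 CPM) did not exceed the Vec range, and replicates 1 to 3 did. The summed levels of the signalling list and of the list from nucleic acid to interferon split in the same way. The 8 macrophage markers summed to 983 to 1217 and 854 to 2673 CPM. The 8 markers of plasmacytoid dendritic cells, which secrete type I interferon, were all detected and summed to 81.0 to 95.4 and 70.3 to 144 CPM, a sum carried mostly by Tcf4 (59.35 and 57.3 CPM) and Lair1 (17.3 and 20.2 CPM). The log2 fold change was positive in 6 of the 8 (median 0.97). It was negative in Ly6d (8.295 and 4.63 CPM, -0.84 ± 0.85 log2 SE, edgeR adjusted p = 0.651) and in Tcf4 (-0.05 ± 0.14 log2 SE). Siglech, a surface receptor of these cells, was at 1.07 ± 0.746 and 2.51 ± 1.15 CPM (1.23 ± 0.48 log2 SE, edgeR adjusted p = 0.283), and Ccr9 was at 0.487 ± 0.297 and 1.42 ± 1.11 CPM (1.53 ± 0.70 log2 SE, edgeR adjusted p = 0.332). In Ccr9, CD43-KO replicate 3 was at 3.25 CPM and the other CD43-KO tumours at 0.221 to 1.31 CPM. The 6 T cell markers summed to 18.8 to 31.6 and 19.4 to 105.8 CPM, and Trac was at 0 in all Vec and 3 CD43-KO libraries. None of the other markers of these lists was at 0 over all libraries. Their part in the levels of the 38 genes and of the pathway lists was not tested.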

How the data were processed

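Whole-tumour RNA of 9 MC38 tumours was sequenced. For each tumour the authors deposited raw, unscaled read counts by gene name. Per the submitters' processing notes, HISAT2 2.1.0 and StringTie 1.3.5 were used along with DESeq2 on GRCm38, in no stated role. How reads were counted, by which annotation and with which strand setting, is not given in the sources used here. Per the labels' protocols, RNA came from TRIzol and libraries from a NEBNext Ultra RNA kit. Groups follow the genotype label, and replicates are numbered in the order of deposition.

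In R 4.3.3, edgeR 4.0.16 was run on all 42454 names. The filter filterByExpr (minimum count 10, minimum total 15) kept 18243 names, and TMM scaling, robust quasi-likelihood F tests and Benjamini-Hochberg adjustment over all names followed, with a threshold of 0.05. SEs were derived from each log2 fold change and its F statistic. DESeq2 1.42.0 and limma 3.58.1 (voom) were alternatives, as were RLE scaling, other filters, summed copies and leaving out each library. Exact permutation tests used log2 CPM with a prior count of 2. Code was tested on simulated data. No library pair agreed within sampling noise (36 pairs, chi-square at least 36.3 times its degrees of freedom).

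The 38 genes and all lists were chosen with earlier results of these data known. Values in all tumours are given for the 2 most abundant genes and the gene with the smallest edgeR p of each role (with more than 6 genes, also the largest change), for Isg15, Ifit1, Mx1, Rsad2, Oas1a, Irf7 and Stat2 in any case, and for Usp18, Epsti1 and Ikbke. Usp18, Epsti1 and Ikbke were chosen after their values were seen, as were Ifnar2, Adar and Trex1. So were the markers Siglech, Ccr9, Tcf4, Lair1, Ly6d, Cox6a2, Klk1 and Arhgdib. Of the other lists, the 2 most abundant genes and the one with the smallest p are named. One gene that this rule names is not reported here. Markers of keratin-type carcinoma cells (summed 9.01 to 15.6 CPM in Vec and 8.10 to 16.1 CPM in CD43-KO, mostly Cdh1) were read as well. Gene positions, promoter windows and transcripts are from RefSeq GRCm38.p6 and GENCODE M21. In 27 of 32 promoter windows of the 38 genes, the bases after the start were found in a transcript of that gene on the same strand.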

Additional observations from a re-analysis of the deposited data

Results flagged for a closer look

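In 5 of 76 groups of values (38 genes in 2 groups of tumours), 1 tumour lay far from the others of its group by Dixon's criterion, which chance alone meets in about 1 of 20 groups, or about 3.8 of 76. Isg15 was at 84.4 CPM in Vec replicate 4, against 49.9 to 51.25 CPM in the remaining Vec tumours. Ifi35 reached 97.1 CPM in the same tumour, with the others at 71.7 to 75.2 CPM. Trim25 was at 43.0 CPM in Vec replicate 1, far under the 81.7 to 87.9 CPM of the others. Mx2 was at 5.90 CPM in Vec replicate 1 with the others at 2.99 to 3.14 CPM. Ifit2 was at 22.7 CPM in CD43-KO replicate 3, the tumour with the highest muscle and fat transcripts, while the other CD43-KO tumours held 30.1 to 31.45 CPM.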

How the results depend on the processing

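No paired analysis was possible because the labels give no replicate numbers shared between the groups. The number of names called over all names was 0, and 612 with DESeq2, 562 with limma voom, 1 with no filter on low counts, and 0 to 29 when 1 library was left out (29 without Vec replicate 3). Of the 38 genes, 0 were called by edgeR under every scaling, filter and left-out library, 2 by DESeq2 and 3 by limma voom. The number with a log2 fold change above 0 was 6, and 10 with limma voom and 5 to 11 when 1 library was left out (10 without Vec replicate 4 or CD43-KO replicate 4, 11 without CD43-KO replicate 5). Their median ranged from -0.25 to -0.14 when 1 library was left out. Of 777 values of single genes under the alternatives, 734 kept direction and side of the threshold, 8 gained a call and 35 changed sign. Under limma voom the log2 fold change turned sign in Zbp1 (0.0162), Oasl1 (0.0102), Parp9 (0.0096), Xaf1 (0.0335), Jak1 (0.0590) and Ifnz (-0.351). When 1 library was left out, the value crossed 0 in Zbp1 (-0.186 to 0.078), Trim25 (-0.25 to 0.0711), Oas3 (-0.0577 to 0.125), Oasl1 (-0.261 to 0.0926), Stat2 (-0.101 to 0.0019), Parp9 (-0.123 to 0.0233) and Dtx3l (-0.0564 to 0.0225). It also did so in Trim30a (-0.106 to 0.0242), Bst2 (-0.230 to 0.0019), Samd9l (-0.0061 to 0.181), Xaf1 (-0.212 to 0.00045), Jak1 (-0.114 to 0.0716) and Ifnz (-0.223 to 0.352). The cause was not tested. Leaving out libraries under DESeq2 and limma voom was chosen after seeing the data. With 4 and 5 tumours the spread between tumours (common biological coefficient of variation 0.313) limits the precision, and for Ifnb1 and the interferon names at 0 the depth does.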

Other observations

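Trim25 took 2 levels that did not follow the groups. In Vec replicate 1 and CD43-KO replicates 1 and 4 it was at 43.0, 46.2 and 47.3 CPM, and in the other 6 tumours between 80.55 and 100.5 CPM. The deposited tables also list Trim25_1, a name with a copy suffix. In those 3 libraries the count of Trim25 was 3.92, 4.08 and 4.32 times that of Trim25_1, and in the other 6 it was 8.09 to 10.5 times. The count of Trim25_1 itself ranged from 378 to 771. Whether the split lies in transcripts, in copies or in the counting was not tested.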
